A study of Mus musculus with 16 samples.

Results

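The group described here holds the small noncoding RNAs and the small nucleolar RNA (snoRNA) host genes of the mouse striatum. Its members are the genes whose names start with Snora, Snord, Scarna, Rnu or Rn7s, together with Rmrp, Rpph1 and Terc, and the numbered Snhg genes except Snhg11. They are 125 of the 20730 genes measured: 65 Snord, 33 Snora, 9 Scarna, 4 Rnu, 0 Rn7s and 11 Snhg genes, and the 3 named RNAs. All members were chosen by name and none by its level.

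RNA came from whole striata of 8 adult C57BL/6N mice. Every mouse had been given a RiboTag adeno-associated virus (AAV), which puts a copy of the ribosomal protein Rpl22 with a hemagglutinin (HA) tag into astrocytes. A second AAV carried a control protein in 4 mice (control mice) and hPMCA2w/b, a plasma membrane calcium pump that dampens calcium signals, in 4 mice (PMCA mice). Each mouse gave an input library from cleared lysate and an IP library of RNA precipitated through the tag, so there were 16 libraries in 4 groups of 4. The promoter that drives either virus, the age in weeks and the sex of the animals were not given in the labels. The RNA Xist was high in both libraries of control mouse 4 and of PMCA mouse 3, and low in those of all other mice. Libraries were made from total RNA with a stranded TruSeq kit after ribosomal RNA removal.

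SnoRNAs are short RNAs that work in the nucleolus, where they pair with ribosomal RNA and guide its chemical modification. Box C/D snoRNAs (Snord) direct 2′-O-methylation and box H/ACA snoRNAs (Snora) direct pseudouridylation, while the related Scarna RNAs act in Cajal bodies on spliceosomal RNAs. Most mammalian snoRNAs are cut from introns of other genes, and Snhg genes are such hosts whose spliced product often encodes no protein. Rpph1 is the RNA of RNase P, which trims transfer RNA precursors, Rmrp is the RNA of RNase MRP, which cleaves ribosomal RNA precursors, and Terc is the template RNA of telomerase.

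Many snoRNA host transcripts, like those of ribosomal proteins, begin with a run of pyrimidines that ties their translation to growth signals. The windows around the annotated start of 6 Snhg genes are shown because they hold the hosts whose levels are described further on, and because 1 of them lacks such a run. Sequences are from RefSeq on the GRCm38.p6 assembly, 5′ to 3′ on the gene's strand, from 20 bases before the start to 40 bases from the start on. Capitals mark runs of at least 6 bases of C or T that reach within 10 bases of the start.
Snhg1, chr19:8723467-8723526, + strand: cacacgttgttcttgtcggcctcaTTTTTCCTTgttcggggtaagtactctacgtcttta
Snhg12, chr4:132308658-132308717, + strand: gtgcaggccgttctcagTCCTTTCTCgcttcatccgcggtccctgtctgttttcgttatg
Snhg8, chr3:123508297-123508356, - strand: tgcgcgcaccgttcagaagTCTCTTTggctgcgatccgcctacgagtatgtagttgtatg
Snhg5, chr9:88522858-88522917, - strand: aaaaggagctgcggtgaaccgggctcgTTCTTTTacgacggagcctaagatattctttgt
Snhg18, chr15:32244623-32244682, - strand: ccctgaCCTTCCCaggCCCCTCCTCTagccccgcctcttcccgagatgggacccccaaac
Snhg3, chr4:132353647-132353706, - strand: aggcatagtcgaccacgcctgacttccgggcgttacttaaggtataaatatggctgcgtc

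Such a run was present in 8 of the 9 Snhg windows (88.9%), all but Snhg3. It was present in 29.2% of all 32851 windows and in 40 of 75 windows of ribosomal protein genes (53.3%). The search covered the gene's own strand, and the annotated start of a noncoding gene may be off by some bases, so a match or its lack describes these letters and no more.

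Inputs held between 32334042 and 40851354 reads and IP libraries between 46829673 and 58482482. All 14 astrocyte markers were higher in IP than in input in both treatments, and all 14 microglial markers were lower. Other cell types were not fully removed: 4 of 10 oligodendrocyte markers were also higher in IP in control mice and 7 of 10 in PMCA mice (median log2 folds 0.35 and 0.45), and of 18 neuronal markers 13 and 15 were lower but 3 and 2 higher (medians -0.88 and -1.19). Rpl22, the tagged protein, lay at 9.80 ± 0.15 log2 CPM (reads scaled to a fixed library size; SD, n = 4) in control IP and at 8.11 ± 0.11 in PMCA IP, a difference of -1.69 (SE 0.09, adjusted p = 1.92e-05, limma). An effect of the pump and an effect of the lower tag level therefore cannot be told apart in any comparison of PMCA with control mice. In whole-tissue libraries, fewer cells of a type and less RNA per cell also cannot be told apart.

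Small noncoding RNAs were rich in input and scarce on the precipitated ribosomes. The 125 members made up 0.371% to 0.605% of input reads and 0.016% to 0.0218% of IP reads, with no overlap between libraries. Rpph1 and Rmrp alone made up 0.345% to 0.573% of input reads. The median member had 44 reads summed over the 4 control inputs, 43 over the 4 PMCA inputs, 7 over the 4 control IP libraries and 15 over the 4 PMCA IP libraries. In control IP 16 members had 0 reads in all 4 libraries, in PMCA IP 7 did, and in each input group 1 did. A count of 0 still allows up to 3 reads in a library, by counting error alone.

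Scaled per kilobase of annotated length, the order of the small RNAs differed between the fractions. Short RNAs are recovered poorly by such libraries, so the order within a fraction does not rank their amounts in the tissue. In control input, Rpph1 led with a mean of 10140 CPM per kilobase, followed by Rmrp with 3964, Scarna2 with 431.3, Scarna13 with 345.4 and Scarna10 with 258.5. In control IP, Scarna13 led with 333.2, followed by Rpph1 with 253.9, Scarna2 with 62.96, Rmrp with 31.09 and Snord4a with 21.07. Scarna13 kept its level in the precipitate, while the other 4 that led in input lost most of theirs.

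The comparison of IP with input asks which RNAs travel with astrocyte ribosomes. In control mice 49 members passed the filter on low values (10 reads or more, scaled to a typical library, in 4 of 8 libraries). With limma and Benjamini-Hochberg adjustment at 0.05, 44 of the 49 were lower in IP and 2 were higher. Among all genes tested 38.4% were lower and 39.1% higher. The median log2 fold of the tested members was -2.89, and that of all genes tested -0.003.

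In PMCA mice 56 members were tested, of which 46 were lower and 3 higher, against 39.3% lower and 37.4% higher among all genes tested. The median log2 fold was -2.17 for the members and -0.04 for all genes. A member that passes the filter through its inputs alone had to be lower in IP: 22 of the 49 in control mice and 11 of the 56 in PMCA mice had no IP library above the cut-off. Of the 18 members above it in all 8 libraries of control mice, 15 were lower and Snord4a was higher. Of the 19 such members in PMCA mice, 16 were lower, and Snord4a and Snhg18 were higher. Since 3 inputs cannot fill the 4 libraries of the filter, the count of lower members dropped to 21 or 22 of 26 or 27 tested without any 1 of the control inputs, and to 29 of 39 without PMCA input 3.

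**Figure D1:**
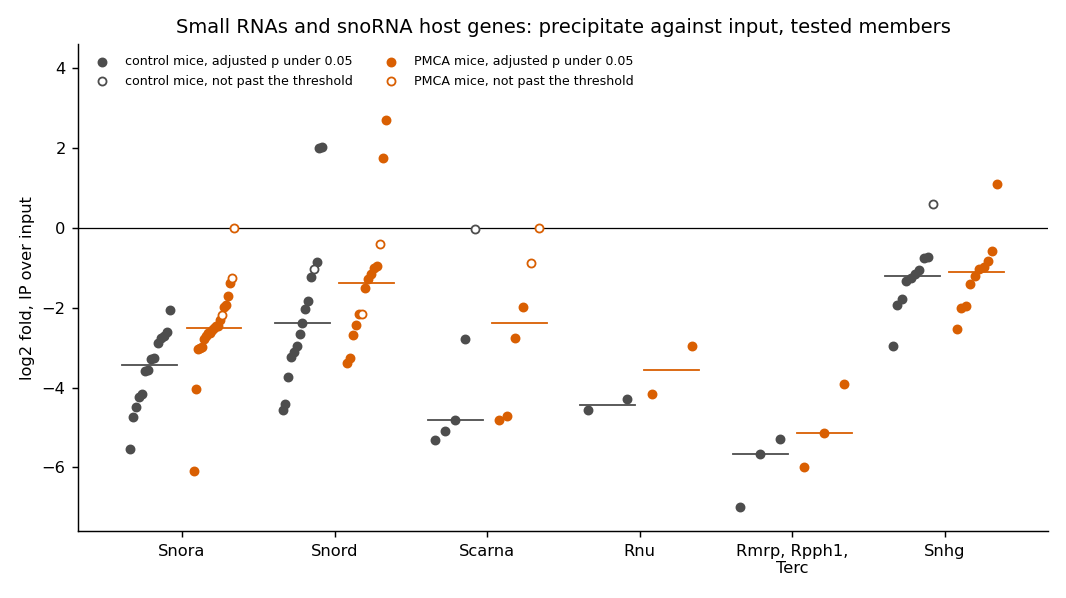
The log2 fold of IP over input (y axis) for each tested member, by class (x axis), in control mice (grey) and PMCA mice (orange). Filled points passed an adjusted p of 0.05, open points did not, and the short lines are class medians; Rmrp is the lowest point in control mice (-6.98), and the points above 0 that passed the test are Snord4a and Snord42a in both treatments and Snhg18 in PMCA mice.

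Rmrp and Rpph1, which had reads well above the cut-off in every library, were far lower in IP. Rmrp (chr4:43492785-43493059) had 9.72, 10.31, 10.23 and 10.04 log2 CPM in the control inputs and 3.12, 3.18, 3.08 and 3.001 in the IP libraries of the same mice. Its level in IP was 126-fold lower (log2 fold -6.98, SE 0.11, adjusted p = 5.52e-11, limma, n = 4 and 4). In PMCA mice it had 10.04, 9.91, 10.01 and 9.99 in input and 4.06, 4.19, 4.35 and 3.42 in IP, a 63.1-fold difference (log2 fold -5.98, SE 0.16, adjusted p = 4.07e-10). The fractions were far apart in every mouse, and the distance was smaller in the PMCA mice, which is tested further on.

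Rpph1 (chr14:50807447-50807771) lay at 11.57, 11.85, 11.97 and 11.24 log2 CPM in control input and at 6.28, 6.38, 6.40 and 6.40 in control IP. Its IP level was 39.2-fold lower (log2 fold -5.29, SE 0.13, adjusted p = 4.59e-10). In PMCA mice it lay at 11.82, 11.60, 11.02 and 11.25 in input and at 6.56, 6.51, 6.21 and 5.86 in IP (log2 fold -5.14, SE 0.19, adjusted p = 2.79e-09). The 2 RNAs share most of their protein subunits, yet Rmrp lost more than Rpph1 in both treatments.

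Terc (chr3:96414437-96414833) had 86, 94, 81 and 70 reads in the control inputs and 2, 0, 7 and 3 in control IP. Its log2 fold was -5.67 (SE 0.82, adjusted p = 7.80e-05) in control mice and -3.91 (SE 0.41, adjusted p = 8.92e-06) in PMCA mice, whose IP libraries had 4, 7, 2 and 5 reads. These IP levels rest on a handful of reads, so the size of either fold is loose.

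Of the Cajal body RNAs, 4 of 5 tested were lower in IP in control mice and 4 of 6 in PMCA mice. In each treatment 3 of those tested had all 4 IP libraries above the cut-off. The others passed at least in part through their inputs, which favours a low fold. Scarna10 (chr6:125186361-125186431), a guide of spliceosomal RNA that lies within the condensin gene Ncapd2, had 3.75, 4.57, 4.32 and 4.02 log2 CPM in control input and -1.47, -0.76, -0.59 and 0.23 in control IP. The log2 fold was -4.81 in control mice (SE 0.31, adjusted p = 1.43e-07) and -4.82 in PMCA mice (SE 0.29, adjusted p = 1.14e-07). Scarna6, within the autophagy gene Atg16l1, fell by 5.09 and 4.70 on the same scale.

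Scarna2 (chr3:108554342-108554402), which lies in no annotated gene, kept more of its level. It had 4.79, 4.95, 4.65 and 4.43 log2 CPM in control input and 1.78, 1.50, 1.99 and 2.36 in control IP. Its fold was -2.80 (SE 0.17, adjusted p = 1.00e-07) in control mice and -1.98 (SE 0.22, adjusted p = 1.15e-05) in PMCA mice. No IP library reached the lowest input.

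Scarna13 (chr12:105031075-105031349) had fractions that overlapped in both treatments, at a level far above the cut-off. It had 6.50, 6.74, 6.78 and 6.19 log2 CPM in control input and 6.65, 6.58, 6.39 and 6.44 in control IP, with 3705 to 5104 reads per IP library. The log2 fold was -0.04 (SE 0.12, adjusted p = 0.786) in control mice. In PMCA mice it had 6.54, 6.49, 6.10 and 6.14 in input and 6.52, 6.46, 6.18 and 6.04 in IP, with a fold of -0.02 (SE 0.13, adjusted p = 0.92). Scarna13 lies within Snhg10 (chr12:105030617-105032279), whose own count was lower in IP in both treatments (-0.76, SE 0.17, adjusted p = 0.0016 in control mice and -0.99, SE 0.17, adjusted p = 0.000404 in PMCA mice). How the authors assigned reads that cover both genes is not known here.

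Of the H/ACA snoRNAs, 14 were tested in control mice and all of these were lower in IP (log2 folds from -5.53 to -2.06), as were 18 of 21 in PMCA mice. Since 10 of the 14 and 9 of the 21 had no IP library above the cut-off and 0 had all 4 above it, they passed the filter mainly through their inputs, and their common direction was largely set by that filter. Snora74a (chr18:35557030-35557227), the most abundant of the class and a guest of Snhg4, had 220, 342, 368 and 662 reads in the control inputs and 9, 10, 14 and 6 in control IP. The log2 fold was -5.53 (SE 0.29, adjusted p = 2.64e-08) in control mice and -6.08 (SE 0.60, adjusted p = 5.19e-06) in PMCA mice.

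Snora28, within the translation initiation factor gene Eif5, and Snora78 followed with folds of -2.89 (SE 0.28) and -2.70 (SE 0.26) in control mice and -2.65 (SE 0.52) and -2.99 (SE 0.76) in PMCA mice. Snora20, within the chaperonin gene Tcp1, was tested in PMCA mice alone. It lay at -3.09, -1.54, -2.14 and -1.77 log2 CPM in PMCA input and at -2.17, -1.82, -2.12 and -2.40 in PMCA IP, so that its fractions overlapped fully (log2 fold 0.01, SE 0.41, adjusted p = 0.991).

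Box C/D snoRNAs went both ways. In control mice 12 of 15 tested were lower, 2 higher and 1, Snord89, did not pass (-1.03, SE 0.58, adjusted p = 0.127). In PMCA mice 10 of 14 were lower, 2 higher and 2 did not pass. Of those tested, 7 of 15 in control mice and 1 of 14 in PMCA mice had no IP library above the cut-off, so they had to be lower. Only 4 and 5 had all 4 IP libraries above it, so these counts give no balance of the 2 directions. Snord104 had 1.40, 1.41, 1.17 and 1.35 log2 CPM in control input and -2.45, -1.64, -1.46 and -2.06 in control IP (log2 fold -3.24, SE 0.25, adjusted p = 5.66e-07). Snord64 (chr7:59978811-59978856), which lies in the imprinted Snhg14 locus, had 1.84, 1.46, 1.65 and 1.49 in control input and -0.70, -0.61, -1.13 and -0.70 in control IP (-2.39, SE 0.19, adjusted p = 5.49e-07). Both were lower in every IP library than in any input of the same treatment. Snord91a, on the other hand, fell by 0.85 (SE 0.17, adjusted p = 0.000847) in control mice.

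The 2 box C/D snoRNAs that were higher in IP lie next to each other. Snord4a (chr11:78181687-78181756) had 15, 18, 10 and 17 reads in control input and 88, 76, 73 and 51 in control IP, or -1.26, -1.004, -2.10 and -1.37 against 0.80, 0.68, 0.47 and 0.26 log2 CPM. Its log2 fold was 1.99 (SE 0.28, adjusted p = 5.87e-05) in control mice and 1.73 (SE 0.25, adjusted p = 9.88e-05) in PMCA mice. Snord42a (chr11:78181302-78181346) had 10, 3, 10 and 7 reads in control input and 30, 50, 29 and 31 in control IP (log2 fold 2.02, SE 0.41, adjusted p = 0.001). In PMCA mice it had 4, 10, 4 and 1 against 31, 20, 26 and 38 (2.69, SE 0.58, adjusted p = 0.00156). For both, the lowest IP library lay above the highest input in either treatment.

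Both lie within Rpl23a (chr11:78180935-78183584), the gene of a large-subunit ribosomal protein, and so does Snord42b, another box C/D snoRNA (chr11:78183059-78183113). Rpl23a itself was lower in IP (-1.37, SE 0.08, adjusted p = 6.04e-08 in control mice and -1.48, SE 0.06, adjusted p = 8.57e-09 in PMCA mice). Snord42b was lower too, with 20, 12, 36 and 22 reads in control input and 10, 5, 3 and 8 in control IP (-2.04, SE 0.47, adjusted p = 0.00226), and in PMCA mice its fold was -2.15 (SE 1.10, adjusted p = 0.0977). In control mice these neighbouring guests of 1 host gene lay on opposite sides of input. There Snord42b lay above the cut-off in its inputs alone, which favours a low fold. Snord42a lay above it in all 4 IP libraries but not in all inputs, which favours a high fold. How reads that cover Rpl23a and its guests were assigned is not known here.

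The 2 minor spliceosome RNAs that could be tested, Rnu11 and Rnu12, which serve the rare class of introns, were lower in IP in both treatments. Rnu11 (chr4:132270079-132270186) had 0.60, 1.70, 1.27 and 1.28 log2 CPM in control input and -3.95, -2.53, -3.07 and -2.78 in control IP (-4.29, SE 0.36, adjusted p = 1.16e-06). Rnu12 fell by 4.56 (SE 0.85, adjusted p = 0.000511). All control IP values of Rnu11 lie below the cut-off of -2.15, and neither RNA had all 4 IP libraries above the cut-off in either treatment. Both thus passed the filter at least in part through their inputs, which favours a low fold. Rnu73b and Rnu6, the latter with 1 read in each of 2 libraries and 0 elsewhere, were not tested in this comparison.

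The Snhg host genes tested had all 4 IP libraries above the cut-off in both treatments, so the filter did not fix their direction, and they cannot be set against classes that passed through their inputs. In control mice 9 of 10 tested were lower (median log2 fold -1.21) and in PMCA mice 9 of 10 were lower and 1 higher (median -1.11). Snhg8, the most depleted, had 3.84, 4.18, 4.09 and 3.74 log2 CPM in control input and 1.15, 0.92, 1.16 and 0.78 in control IP (-2.96, SE 0.13, adjusted p = 9.43e-09). Snhg6 fell by 1.93, Snhg7 by 1.78, Snhg12 by 1.32, Snhg4 by 1.25, Snhg1 by 1.16 and Snhg3 by 1.05. Snhg10 with -0.76 and Snhg5 with -0.73 (SE 0.12, adjusted p = 0.000207) were the least depleted of those that passed. The fold of Snhg3, whose window has no pyrimidine run, lay within the range of the hosts that have one.

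Snhg18 stood apart from the other hosts in direction. It had 0.80, 0.37, -0.06 and -0.07 log2 CPM in control input and 1.11, 1.18, 0.83 and 0.29 in control IP, groups that overlapped (log2 fold 0.59, SE 0.26, adjusted p = 0.0576). Without control input 1 or control IP 4 the fold passed (0.77 and 0.78, adjusted p = 0.0201 and 0.0146). With the animal as a block the same fold passed (adjusted p = 0.0143), as the IP was higher than the input in each of the 4 mice. In PMCA mice it had 0.02, -0.14, 0.15 and -0.09 in input and 1.18, 1.43, 0.90 and 0.86 in IP, with no overlap (1.10, SE 0.18, adjusted p = 0.000196). Whether its fold differed between treatments was tested and did not pass (0.51, SE 0.32, adjusted p = 0.464).

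**Figure D2:**
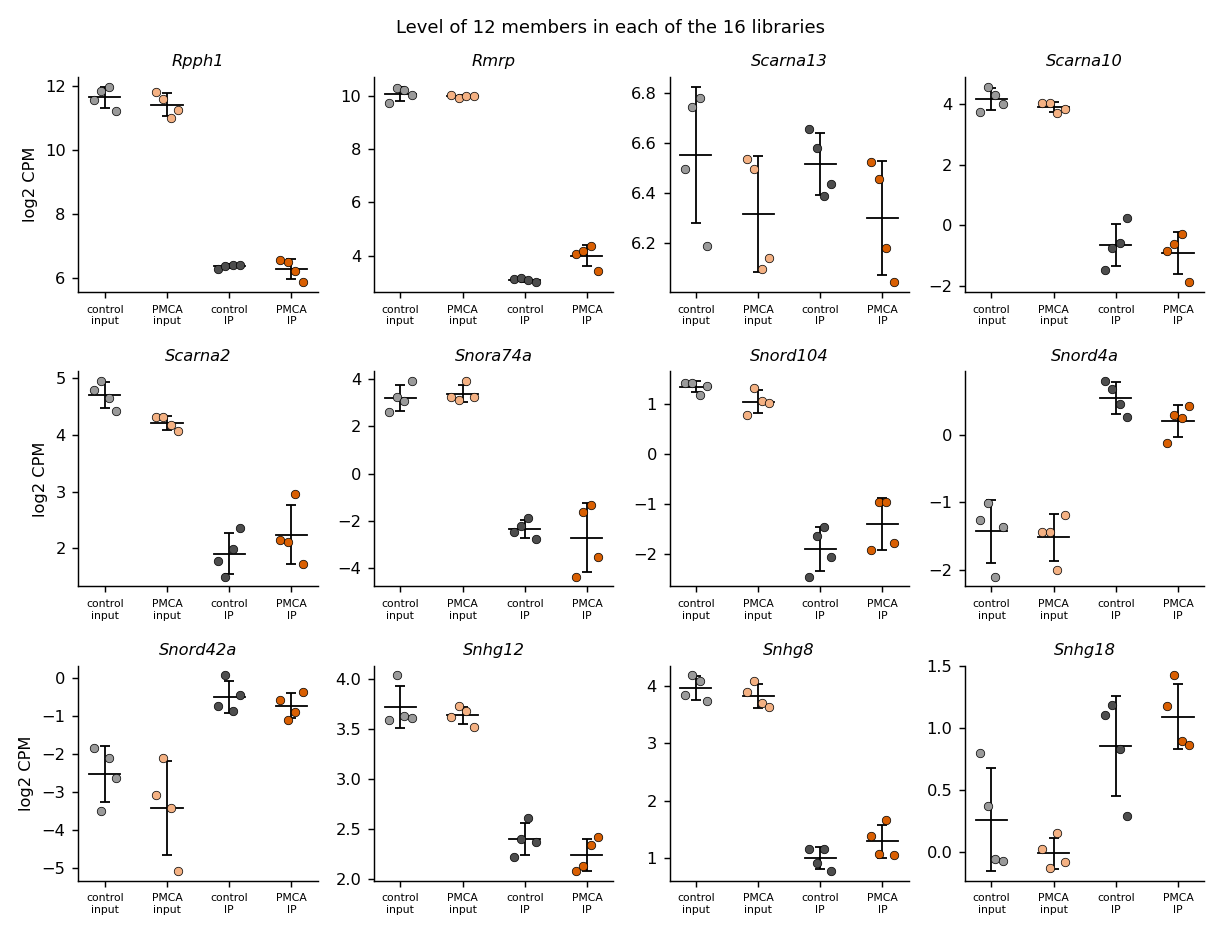
The log2 CPM (y axis, scaled separately in each panel) of 12 members in every library, by group (x axis); the points are libraries, the horizontal lines group means and the bars SD (n = 4). Rpph1, Rmrp, Scarna10, Scarna2, Snora74a, Snord104, Snhg12 and Snhg8 lie lower in IP, Snord4a and Snord42a lie higher, and Scarna13 overlaps between fractions.

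Hosts outside the members fell as well. Of 9 other host genes listed, 5 were in the files. All 4 tested in control mice and all 5 tested in PMCA mice were lower in IP. Among all genes tested 38.4% and 39.3% were lower. The hosts that fell include Gas5, a host of box C/D snoRNAs (-1.61, SE 0.10, adjusted p = 7.61e-08 in control mice), and Dancr (-2.82, SE 0.25, adjusted p = 1.79e-06). The others tested in control mice, Rian and Snhg11, are also counted among the nuclear long noncoding RNAs further on.

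Of the 114 small RNA members, 97 lie within 1 annotated gene, 7 within 2 and 10 within none or were not placed. The host is a ribosomal protein gene for 32 and a member Snhg gene for 12. The annotation used gives gene spans, so intron and exon positions are not stated. Among 28 small RNAs in control mice for which both guest and host were tested, in 23 hosts, 24 had a lower fold than their host. The median fold was -3.27 for the guests and -0.95 for the hosts, and the median difference -2.50. In PMCA mice 29 of 34 guests in 28 hosts were below their host, with a median difference of -1.03. These counts support nothing about guests as a whole, because most guests lay above the cut-off in their inputs but not in all IP libraries, which favours a low fold, and guests that share a host are not independent. Among the guests above the cut-off in all 8 libraries, 4 had a tested host in each treatment: Scarna10 and Snord64 lay below their host, and Scarna13 and Snord4a above it.

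The folds of guests of 1 host lay apart in control mice, a difference that was not tested. The log2 fold of the guest minus that of the host was -2.25 for Snora16a and -3.42 for Snora44, both in Snhg12, and -2.46 for Snora17 and -1.48 for Snora43, both in Snhg7. In neither treatment was a guest of a host that rose in IP itself higher: in control mice Zbed3 rose by 1.03 and its guest Snora47 fell by 4.15, and Ipo7, an import receptor gene, rose by 0.59 while Snora23 fell by 3.56. The guests named here are H/ACA snoRNAs, of which 0 of 14 tested in control mice had all 4 IP libraries above the cut-off. The filter therefore favoured their low folds, and these pairs say little about guests and hosts.

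**Figure D3:**
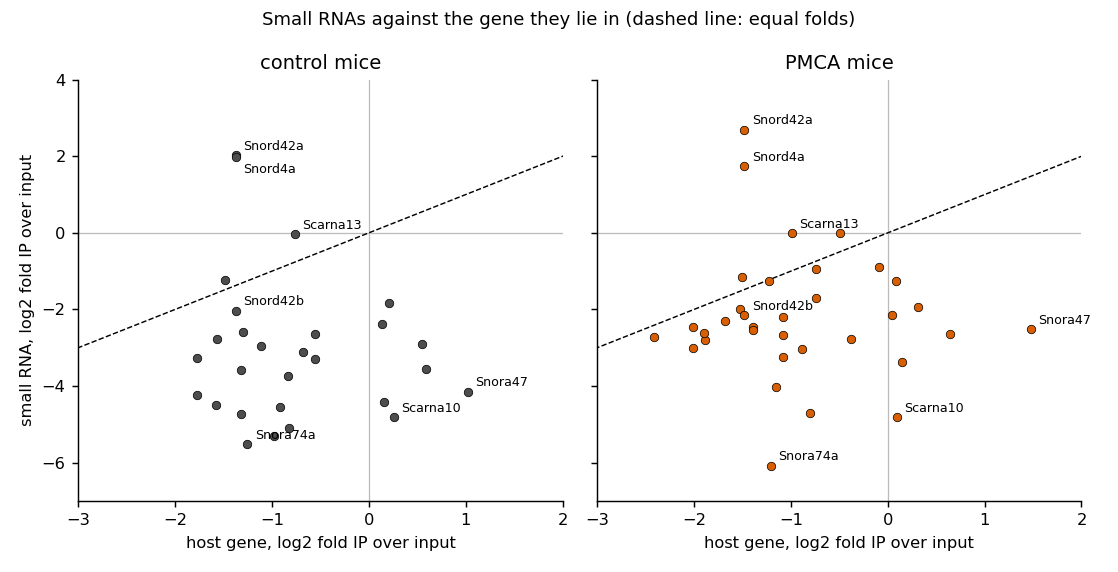
The log2 fold of IP over input of each small RNA (y axis) against that of the gene it lies in (x axis), in control mice (left, 28 pairs) and PMCA mice (right, 34 pairs). The dashed line marks equal folds; 24 and 29 pairs lie below it, and Snord4a and Snord42a lie above 0 in the field of a host below 0.

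The comparison of PMCA with control IP asks what calcium extrusion from astrocytes changed on their ribosomes. The filter left 25 of the 125 members. Of these 1 was higher in PMCA IP and 0 were lower, where 9.54% of all genes tested were higher and 10.1% lower. At an unadjusted p under 0.05 the count was the same single member with limma and 2 with voom weights. Among all 15748 genes tested, 5520 and 5535 had such a p. The median log2 fold was -0.08 for the tested members and -0.01 for all genes.

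The member that rose was Rmrp. It had 441, 432, 448 and 342 reads in the control IP libraries and 770, 790, 997 and 526 in the PMCA IP libraries, or 3.10 ± 0.08 against 4.00 ± 0.41 log2 CPM (SD, n = 4 and 4). The log2 fold was 0.91 (SE 0.17, adjusted p = 0.00755, limma), or 1.88-fold, and every PMCA library lay above every control library, with PMCA 4 the closest. In input, Rmrp did not differ beyond its spread (10.07 ± 0.26 against 9.99 ± 0.06, log2 fold -0.09, SE 0.10, adjusted p = 0.674).

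The test of the difference between the fractions passed for Rmrp (0.997, SE 0.21, adjusted p = 0.0287, limma over 16 libraries with no term for the animal). With the animal as a block it also passed (adjusted p = 0.0187), but the fits with a library left out had no such block. In the main fit Rmrp was the 1 member of 73 tested that passed, and 0 were lower in that sense. Of all genes tested there, 2.03% passed in either direction. The size kept its sign when each library was left out, but the adjusted p rose above 0.05 without any 1 of 8 libraries: control inputs 2 and 3, PMCA inputs 1, 2 and 4, and PMCA IP 1, 2 and 3 (0.88 to 1.02, adjusted p 0.0536 to 0.0639). Without PMCA IP 1 another member, Snora81, passed instead (1.996, SE 0.41, adjusted p = 0.0356). At an unadjusted p under 0.05 there were 11 of the 73 members, beside 2711 of all 16673 genes tested. The median interaction was 0.71 for the 73 members and 0.01 for all genes. The members' median rests on those with few reads: 28 of the 73 had no IP library above the cut-off, and it was 0.44 with a prior count of 2 and 0.15 for the 28 members with 50 reads or more.

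Rpph1 did not move with Rmrp. Its reads were 3938, 3978, 4477 and 3614 in control IP and 4341, 3939, 3634 and 2856 in PMCA IP, with groups that overlapped (log2 fold -0.08, SE 0.13, adjusted p = 0.707), and the sign of this fold turned without PMCA IP 4 (0.06). Within each IP library the log2 level of Rmrp minus that of Rpph1 was -3.16, -3.20, -3.32 and -3.401 in control mice and -2.50, -2.32, -1.87 and -2.44 in PMCA mice. This was -3.27 ± 0.11 (SD) in control mice and -2.28 ± 0.29 in PMCA mice, a difference of 0.991 (exact permutation test, two-sided, p = 0.0286, the smallest that 4 against 4 can give). In input the same quantity differed by 0.147 (exact permutation p = 0.543). This ratio was chosen after the values had been seen.

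The RNA of genes for RNase P and MRP proteins did not rise with Rmrp, and the proteins themselves were not measured. Of the 11 such genes listed, 5 were lower in PMCA IP and 0 higher (median log2 fold -0.25): Pop5 (-0.49, SE 0.08, adjusted p = 0.00404), Rpp25, Rpp25l, Rpp30 and Pop4. Among all genes tested 10.1% were lower. In input 0 of the 11 passed, with 4 at an unadjusted p under 0.05, beside 3152 of all 16306 genes tested.

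Other RNAs changed beside Rmrp in the same libraries. Of 10 nuclear long noncoding RNAs tested from a list of 11, 9 were higher in PMCA IP (median 1.18), among them Malat1 (1.16, SE 0.19, adjusted p = 0.00437) and Meg3 (1.21, SE 0.14, adjusted p = 0.00168). Their summed level was 1569 to 2299 CPM in control IP and 3289 to 6349 in PMCA IP. Rn45s, the ribosomal RNA precursor that RNase MRP cleaves, was also higher (0.90, SE 0.15, adjusted p = 0.00489). Of 14 microglial markers 7 were higher and 0 lower, with summed levels of 68.3 to 87.7 and 87.9 to 141.1 CPM, and none of the 14 was at 0 reads in an IP library. Of 12 endothelial and mural markers 6 were higher and 2 lower (sums of 92.3 to 101.5 and 129.2 to 140.0 CPM), of 14 astrocyte markers 4 were higher and 0 lower, and of 18 neuronal markers 0 were higher and 8 lower (median -0.38). The part of these RNAs in the Rmrp result was not tested.

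No other member passed in IP. Scarna13 lay at 6.51 ± 0.12 log2 CPM in control IP and 6.30 ± 0.23 in PMCA IP (-0.21, SE 0.11, adjusted p = 0.199), and Snord4a had a fold of -0.34 (SE 0.19, adjusted p = 0.235). Snord89 had the widest positive fold that did not pass (0.97, SE 0.48, adjusted p = 0.179). Without PMCA IP 4, Snord91a was called lower (-0.74, SE 0.22, adjusted p = 0.0371). The 10 Snhg genes tested ranged from -0.31 (Snhg7) to 0.29 (Snhg8), and the fold of Gas5 was 0.11 (SE 0.10, adjusted p = 0.465). Of the 4 hosts outside the members that were tested, 2 were higher in PMCA IP: Rian (0.53, SE 0.12, adjusted p = 0.0153) and Snhg11 (1.38, SE 0.16, adjusted p = 0.00196), both of which are also among the nuclear RNAs above.

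The 100 members left out by the filter had so few IP reads that single tests say little, but their sums differed by treatment. Together they had 3.23 to 4.05 CPM (138 to 208 reads) per control IP library and 6.59 to 11.2 CPM (304 to 551 reads) per PMCA IP library. In input they had 32.1 to 40.9 CPM in control mice and 33.5 to 39.8 in PMCA mice. The IP groups did not overlap and the input groups did.

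The classes differed in this. Snora RNAs summed to 1.59 to 2.60 CPM in control IP and 2.93 to 5.35 in PMCA IP, and to 18.6 to 30.2 and 23.3 to 31.2 in input. All Snord RNAs together overlapped in IP (5.39 to 7.13 and 6.64 to 10.1 CPM), as did the Rnu RNAs and the Scarna RNAs (88.5 to 104.7 and 70.2 to 97.6 CPM). The Scarna sum is mostly Scarna13, and without it the direction turned (3.75 to 6.62 and 4.23 to 9.33 CPM), still with an overlap. Snord RNAs other than Snord4a and Snord42a had 170 to 214 reads in control IP and 233 to 411 in PMCA IP, or 3.47 to 4.49 and 5.05 to 8.39 CPM. Snhg genes summed to 25.5 to 28.4 and 24.3 to 28.3 CPM. The Snora sums were thus higher in PMCA IP with no overlap, while the sums of all Snord RNAs and of the Snhg genes overlapped. The Snord sums without Snord4a and Snord42a did not overlap, but these 2 were set aside after their values had been seen. Sums of other genes with few reads are not given here. All these sums are given with no test, because the members were chosen with results of these data known. The Snora sums and the reduced Snord sums moved with the nuclear RNAs above, whose part in them was not tested.

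**Figure D4:**
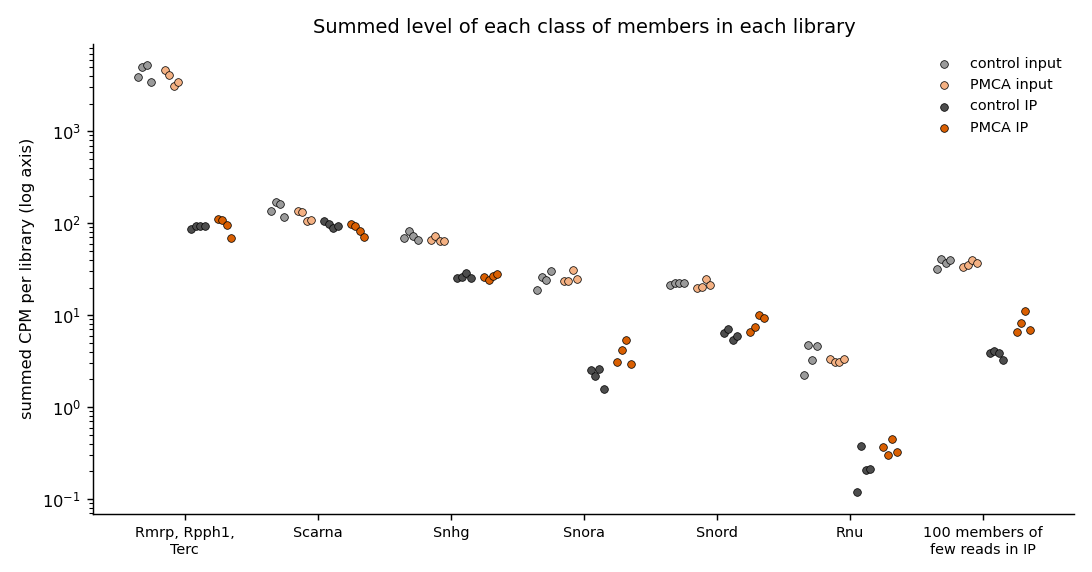
Summed CPM of each class of members in every library (y axis, log scale), by class (x axis) and group (colour), with the last column holding the 100 members that were not tested for PMCA against control in IP. The Snora sums and the sums of the last column lie higher in PMCA IP than in control IP with no overlap, while the Snhg sums overlap.

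Single low members show how few reads these sums rest on. Without the filter, 6 of 125 members were called higher in PMCA IP: Rmrp, Snord2, Snord61, Snora64, Snord85 and Snord8. Among all 20730 genes 1222 were called higher in that fit. Snord61 was called from 1 read in each of the 4 PMCA IP libraries and 0 in each control IP library. Snord2, within the initiation factor gene Eif4a2, had 3, 5, 4 and 3 reads in control IP and 8, 14, 17 and 14 in PMCA IP. Its PMCA effect in IP minus that in input was 1.70 (SE 0.47, adjusted p = 0.0752).

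In whole lysate no member passed the test between treatments. Of 71 tested, 0 passed and 5 had an unadjusted p under 0.05 with limma, and voom weights also gave 0. Among all 16306 genes tested 0.442% passed, and 3152 had an unadjusted p under 0.05 with limma. The nearest was Scarna2, with 4.79, 4.95, 4.65 and 4.43 log2 CPM in control input and 4.32, 4.32, 4.17 and 4.06 in PMCA input (-0.49, SE 0.10, adjusted p = 0.074). Every PMCA input lay below every control input, and so did the summed Scarna RNAs other than Scarna13 (36.7 to 42.7 against 44.5 to 61.8 CPM). Scarna2 passed under 3 other settings, among them without control input 4 (-0.58, adjusted p = 0.00332). Without that library 939 of all 16212 genes tested were higher and 417 lower, against 59 and 13 in the main fit.

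Snord118, the U8 snoRNA that ribosomal RNA processing needs, had 3, 4, 5 and 10 reads in control input and 15, 13, 23 and 13 in PMCA input, with no overlap. Its fold was 1.55 (adjusted p = 0.102), and 1.83 (adjusted p = 0.0232) without control input 4, where calls rose among all genes. Rpph1 in input had a fold of -0.23 (SE 0.18, adjusted p = 0.493) and Terc of -0.54 (SE 0.23, adjusted p = 0.231).

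For the proteins that build and use these RNAs, the RNA of their genes was measured from lists, and no protein was measured. Among all genes tested 10.1% were lower and 9.54% higher in PMCA IP. In the same libraries 8 of 18 neuronal markers were lower, whose part was not tested. Of 13 box C/D proteins and assembly factors in the files, 7 were lower in PMCA IP and 0 higher (median -0.23): the core proteins Nop56, Nop58 and Nhp2l1, the helicases Ruvbl1 and Ruvbl2, and Nufip1 and Nolc1. Of 8 box H/ACA proteins 3 were lower, namely Nop10 (-0.43, SE 0.09, adjusted p = 0.0108), Nhp2 and the Cajal body protein Coil. Of 36 spliceosomal proteins 7 were lower and 1, Rnpc3 of the minor spliceosome, was higher (0.45, SE 0.12, adjusted p = 0.032). Of 7 proteins around 7SK RNA 1 was lower (Larp7), of 16 RNA processing factors 2 (Ints4 and Ssb), of 10 nonsense-mediated decay factors 1 (Smg8) with 1 higher (Smg1), and of 9 SMN complex proteins, 9 signal recognition particle proteins and Tert 0 in either direction.

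In input 0 genes of these protein lists passed for PMCA against control. Between IP and input in control mice the protein genes went both ways. The RNAs they bind were mostly lower where tested, but many of those passed the filter through their inputs, which favours a low fold. The protein genes and these RNAs therefore cannot be set against each other. Of 13 box C/D proteins 4 were higher and 2 lower (median 0.10), of 8 box H/ACA proteins 2 higher and 3 lower (-0.14), and of 11 RNase P and MRP proteins 3 higher and 6 lower (-0.20). The median folds of the 3 lists lie near that of all genes.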

How the data were processed

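The submitters' processing notes name STAR, HTSeq, edgeR, limma and the mm10 build; roles, versions, annotation and strand setting were not stated. What the authors deposited is log2 CPM, scaled by library. Undoing the log2 scale with a prior count of 0.25 gave whole reads for 100% of values (tolerance 0.001), from which totals and effective sizes were computed. Column purification and fragment libraries recover short RNAs poorly, so these levels are not tissue abundances.

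Genes entered a comparison with 10 reads or more, scaled to the median effective size, in 4 of its libraries, and were tested on the deposited log2 CPM with limma 3.58.1 in R 4.3.3 (empirical Bayes with a mean-variance trend, two-sided, Benjamini-Hochberg adjustment over all genes tested, threshold 0.05). The fit was tested on simulated data. No main fit had a term for the animal, so input and IP of a mouse were treated as independent libraries. Alternatives were total reads, median-of-ratios size factors, other filters and prior count, voom weights, blocks, and each library left out.

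Members, lists and tests were chosen with earlier results of these data known. Members named are, per class, the 3 of highest mean, the 5 largest rises and falls that passed, those that changed side, and all tested Snhg genes. A few others, such as Snora20, Snord61, Snord118 and the guests of 1 host, were named after their values were seen. Positions are those of RefSeq on GRCm38.p6; 124 of 125 members matched by symbol, and Rnu73b did not. Input and IP of a mouse come from the same animal by the labels. Their deviations from the group means correlated with r of 0.186 to 0.45 over 14472 genes in all 8 pairs. Nothing beyond the labels' count of 8 mice says how mice were assigned, so p-values measure the spread between libraries of these animals. All columns of the files were used.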

Additional observations from a re-analysis of the deposited data

Results flagged for a closer look

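The effect of PMCA on Rmrp differed between the fractions: the effect in IP minus that in input was 0.9973 on the log2 scale (adjusted p = 0.0287, limma), with the values given above.

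Single libraries lay apart from the other 3 of their group for 6 of the 92 groups looked at (23 members in 4 groups), by Dixon's ratio of the gap to the group's range; chance alone gives about 1 in 20 such groups. Rpph1 in control IP 1 was the lowest of its group at 6.28 log2 CPM, although the 4 libraries span little. Rnu11 in PMCA input 4 was the highest at 1.267, and Snora74a in PMCA input 3 at 3.911. Among the hosts, Snhg12 in control input 2 was the highest of its group at 4.039 and Snhg6 in PMCA IP 3 at 1.855. Snord42b in PMCA input 2 was the highest of its group at -0.456, from 32 reads. None of these libraries stood apart for more than 1 of the 23 members.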

How the results depend on the processing

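The alternatives were counted for 99 member results. Apart from Snhg18 in control mice and Rpph1 in IP, these were results that had passed in the main fit. Of the 99, 89 kept their direction and their side of the threshold under every alternative run for them. Of the other 10, Snhg18 and Snord49a concern IP against input in control mice. Snora30, Snora33, Snord118, Snord2, Snord53 and Snord91a concern it in PMCA mice. The rest are Rpph1 in IP and the Rmrp test between fractions. Other results that had not passed were left out of this count. Some of these passed under an alternative, such as Scarna2 and Snord118 in input, Snord91a between treatments in IP and Snora81 between fractions. With no filter, 94 of 125 members were lower in IP in control mice, 6 were higher in PMCA IP and 2 in the test between fractions. The counts for all 20730 genes were 6809, 1222 and 108. At 50 reads or more, 1 was higher and 23 lower in control mice and 1 higher and 21 lower in PMCA mice, since only 26 and 23 members were tested. Among all genes 5992 were higher and 5258 lower of 14232 in control mice, and 5830 and 5589 of 14337 in PMCA mice. With total reads in place of the authors' scaling, the median log2 fold of IP over input of all genes moved from -0.003 to -0.28 in control mice (4493 genes higher and 8389 lower) and from -0.04 to -0.35 in PMCA mice (4294 and 8898), and that of the members to -3.17 and -2.46.

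With the animal as a replicate block, 3 members were higher and 44 lower in control mice (Snhg18 added) and 3 and 47 in PMCA mice, the Rmrp test between fractions kept its call (adjusted p = 0.0187), and it changed no other count of members by over 1.5 times. The animals' numbers in the labels fall into a low and a high set, which served as a block; what the sets mean is not stated, and control mouse 4 has a high number in its title and a low one in its source name, so both placements were run. In input, the block by the number set in the titles gave 1 lower (Scarna2). The block by high Xist (control mouse 4 and PMCA mouse 3) gave 1 higher (Snord118) and 1 lower (Scarna2). Calls among all 16306 genes rose as well, from 59 higher and 13 lower in the main fit to 620 and 248 with the title block. With the Xist block they were 570 and 216. The fold of Rpph1 in IP, which never passed, turned to 0.167 with the number set of the source names as a block, and ranged from -0.1715 to 0.06038 with each library left out; the cause was not tested. With each library left out, the members lower in IP ranged from 21 to 45 in control mice and from 29 to 46 in PMCA mice, because without an input fewer passed the filter. The members lower in PMCA IP ranged from 0 to 1, those higher and those lower in PMCA input each from 0 to 1, and those higher in the test between fractions from 0 to 1. Most members had under 10 reads in an IP library, so the lack of a call there says little.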
